A study of Mus musculus with 33 samples.

Results

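Axl, Mertk and Tyro3 are the TAM receptors, and Gas6 and Pros1 encode their ligands growth arrest specific 6 and protein S. The 5 genes were taken by family membership, and all 5 were found among the 54146 genes listed in each of 33 libraries of sorted mouse microglia. TAM receptors are receptor tyrosine kinases. Their ligands are vitamin K dependent proteins whose one end binds phosphatidylserine on dying cells and membrane fragments while the other end binds the receptor, so that the ligand bridges the cell to be eaten and the phagocyte. GAS6 can activate all members of the receptor family, whereas protein S acts on TYRO3 and MERTK. In the brain MERTK and AXL are known from microglia, among other cells, where they serve the uptake of apoptotic cells and restrain inflammatory signalling, and TYRO3 is mainly known from neurons.

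The libraries fall into 10 groups, all labelled C57BL/6, female and sorted microglia. Germline IRF8KO at 3 months (4 libraries) had its own WT group of that age (4). At 9 months there were WT (3), IRF8KO (3), 5xFAD (3, genotype label 5xFAD/WT) and 5xFAD/IRF8KO (3) libraries. 5xFAD mice carry transgenes driven by the neuronal Thy1 promoter and develop amyloid plaques. Batf3-/- mice (3, called Batf3KO here) had WT controls of 3 months (3). IRF8flox mice (3, flox) and IRF8floxCx3cr1CreERT2 mice (4, Cre) both received tamoxifen on 5 days from postnatal day 12 and were analysed at 3 months. The series text states that YFP+ cells of a line that also carries a Rosa26LSL-EYFP reporter were sorted for the conditional deletion. The flox group carries no Cre, so the presence of Cre and the loss of Irf8 cannot be told apart there. Irf8 encodes a transcription factor of microglia and other myeloid cells, and Batf3 one of the AP-1 family that can pair with IRF factors. Nothing in the labels ties each library to its own animal, so p-values measure the spread between these libraries, which may be technical.

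Gene counts per library ran from 605376 to 18357762, with the lowest in a WT library of 9 months. Irf8 and Batf3 were read first as a check of the labels. Irf8 transcripts were lower but present in the germline knockouts: 95.4 to 172 CPM (counts scaled to a common library total) against 241 to 313 CPM in WT at 3 months, and 14.9 to 127 CPM against 543 to 650.2 CPM in WT at 9 months. In 5xFAD/IRF8KO they were at 73.1 to 94.1 CPM against 510 to 704 CPM in 5xFAD. The exons deleted in the germline knockout are not given in the sources used here, and reads over the whole gene were counted. Batf3 was at 0.482 to 0.575 CPM in Batf3KO against 26.7 to 32.3 CPM in its WT. Batf3 was also low in the germline IRF8KO libraries, at 0 to 1.85 CPM against 19.2 to 66.01 CPM in WT at 3 months, and at 0 in all 6 knockout libraries of 9 months, so the germline loss of Irf8 came with low Batf3. Cre replicate 1 had 1050 CPM of Irf8, inside the flox range of 906 to 1145 CPM, whereas Cre replicates 2 to 4 had 337 to 485 CPM. It is the library labelled Cre replicate 1 throughout. For the conditional deletion, Axl and Gas6 are given with and without it. The other members are given over all Cre libraries and as ranges on leaving out 1 library.

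The libraries also differed in what else they held, given as the summed share of gene counts of a marker list and its lowest and highest library. At 9 months the 10 microglia markers took 5.104 to 5.76% of WT and 5.05 to 5.53% of 5xFAD counts, but 0.311 to 0.686% of IRF8KO and 0.483 to 0.751% of 5xFAD/IRF8KO counts. At 3 months their share was 0.8999 to 2.14% for WT against 0.503 to 0.8202% for IRF8KO, 4.55 to 4.81% in the WT of the Batf3KO experiment, 4.404 to 4.71% in Batf3KO, 3.15 to 3.32% in flox and 2.66 to 3.296% in Cre. The 11 neutrophil markers took 0.8395 to 5.37% of WT counts against 7.38 to 16.2% of IRF8KO counts at 3 months. At 9 months they took 6.34 to 8.91% of IRF8KO and 7.97 to 13.95% of 5xFAD/IRF8KO counts. Their share was at most 0.0003304% in WT and 0.000184% in 5xFAD at 9 months, where 6 and 3 of the 11 had no count in any library. Transcripts of 4 Y-linked genes also differed although every library is labelled female: at 9 months WT libraries held 0.0275 to 0.0307%, IRF8KO libraries 0.000463 to 0.0149%, 5xFAD libraries 0 to 0.0156% and 5xFAD/IRF8KO libraries 0.02303 to 0.0269%. At 3 months the share was 0.000781 to 0.0106% for WT, and 0.0118 to 0.0161% for IRF8KO, and they were at 0 in every library of the Batf3KO experiment. Xist, the X-linked transcript listed to check the label, was at 0 in IRF8KO of 3 months and at 7.785e-05 to 0.0006065% in its WT. IRF8KO libraries of 3 months thus had Y-linked transcripts and no Xist, against their label. At 9 months Xist took 0 to 0.000165% in WT and 0.000674 to 0.0104% in 5xFAD. It took 0.000526 to 0.0184% in IRF8KO and 0.000867 to 0.00395% in 5xFAD/IRF8KO. The part of these differences in the results below was not tested, and in bulk libraries fewer cells of a type and less RNA per cell cannot be told apart.

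The sequences next to the start sites are shown for Pros1 and Mertk, the ligand and the receptor that were lower without Irf8 at 9 months, and for Axl, the receptor that was higher without Batf3. Each is the 250 bases before the start of the RefSeq gene on GRCm38.p6, read 5′ to 3′ on the strand of the gene. Capitals mark GGAA, the core of the sites bound by ETS factors such as PU.1, on either strand. The windows are chr16:62854057-62854306 on the plus strand, chr2:128698665-128698914 on the plus strand and chr7:25788734-25788983 on the minus strand.
Pros1: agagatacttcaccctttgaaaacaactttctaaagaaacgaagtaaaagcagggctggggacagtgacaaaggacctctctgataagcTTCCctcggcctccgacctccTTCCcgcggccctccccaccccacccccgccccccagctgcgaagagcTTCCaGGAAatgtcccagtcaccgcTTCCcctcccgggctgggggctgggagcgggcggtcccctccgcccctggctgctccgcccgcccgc
Mertk: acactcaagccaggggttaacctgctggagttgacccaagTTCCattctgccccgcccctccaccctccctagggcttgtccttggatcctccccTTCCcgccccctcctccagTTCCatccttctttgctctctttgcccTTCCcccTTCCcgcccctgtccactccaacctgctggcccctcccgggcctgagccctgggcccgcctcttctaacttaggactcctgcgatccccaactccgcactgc
Axl: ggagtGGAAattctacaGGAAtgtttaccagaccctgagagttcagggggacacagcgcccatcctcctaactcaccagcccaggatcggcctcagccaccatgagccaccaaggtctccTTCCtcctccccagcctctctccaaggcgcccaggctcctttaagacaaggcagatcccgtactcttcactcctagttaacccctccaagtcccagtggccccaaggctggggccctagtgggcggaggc
GGAA occurred 5 times before Pros1, 5 times before Mertk, 3 times before Axl, 2 times before Tyro3 and 1 time before Gas6, and at least 1 time in 93.4% of 32851 such windows. The interferon-stimulated response element, a site of IRF factors searched as GAAA, 2 bases of any kind and GAAA, was found in none of the 5 windows and in 2.98% of all. The ETS-IRF composite element that IRF8 binds with PU.1, searched as GGAA, 2 bases of any kind and GAAA, was found in none of the 5 and in 2.3% of all. TGANTCA, the AP-1 element, was found in none of the 5 and in 6.75% of all. Both strands were searched, and the ETS-IRF element contains GGAA. The counts say only which letters these windows hold.

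Across the 10 groups Mertk was the most abundant receptor per length of exon in each group. Per kilobase of exon its group means ran from 17.2 ± 8.797 CPM (SD, n = 3) in IRF8KO at 9 months to 183 ± 5.89 CPM (SD, n = 3) in the WT of the Batf3KO experiment. Its mean share of the 3 receptors' summed level per kilobase was lowest, at 76.4 ± 10.2%, in IRF8KO at 9 months and highest, at 97.3 ± 0.559%, in flox. Axl came next in all groups except flox and 5xFAD/IRF8KO, where its mean per kilobase was 0.321 ± 0.0793 and 0.832 ± 1.44 CPM against 0.737 ± 0.09502 and 1.06 ± 1.09 CPM for Tyro3. The ligands changed places: per kilobase Pros1 exceeded Gas6 in the means of WT and 5xFAD at 9 months and of WT and Batf3KO in the Batf3KO experiment, and Gas6 exceeded Pros1 in the other 6 groups.

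**Figure D1:**
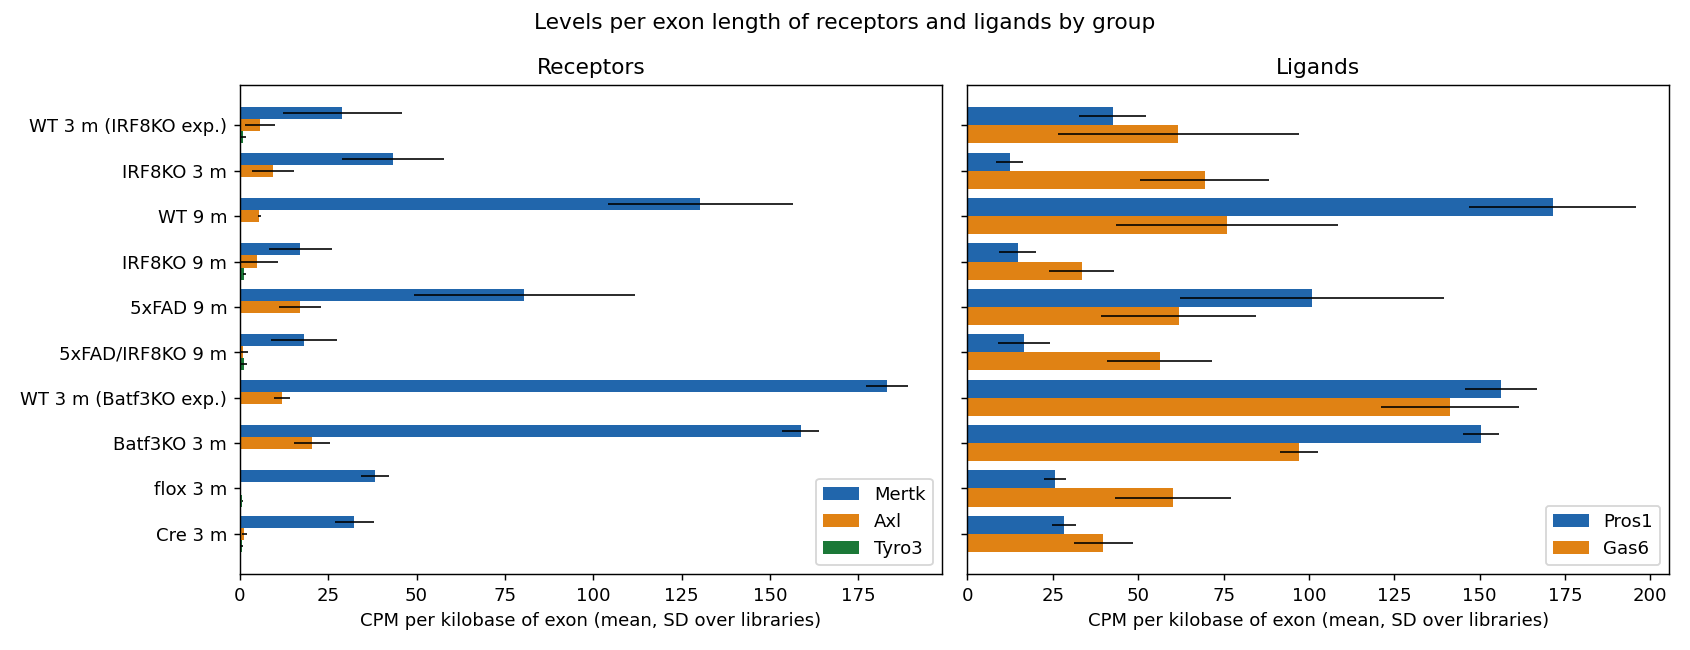
Mean level per kilobase of exon (horizontal axis, CPM per kilobase, linear from 0) of the 3 receptors (left) and the 2 ligands (right) in each of the 10 groups; bars are means and lines 1 SD over 3 or 4 libraries. Mertk is the longest receptor bar in every group, and Pros1 is longer than Gas6 in 4 groups.

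The level of each member in CPM is given next in the order of its 10 group means, with the neighbours whose libraries did not overlap. Pros1 was highest in WT at 9 months at 701 ± 99.7 CPM (SD, n = 3), followed by the WT of the Batf3KO experiment, Batf3KO and 5xFAD. A gap without overlap separated 5xFAD at 412 ± 158 CPM (SD, n = 3) from the WT of the IRF8KO experiment at 174 ± 40.2 CPM (SD, n = 4). Cre and flox followed, and a further gap separated flox at 105 ± 12.9 CPM (SD, n = 3) from the 3 germline knockouts, which closed the order at 67.6 CPM in 5xFAD/IRF8KO, 59.96 CPM in IRF8KO at 9 months and 50.4 CPM in IRF8KO at 3 months. All other neighbours of Pros1 overlapped. The 10 germline IRF8KO libraries thus held the 3 lowest group means of this ligand, across both ages and with or without 5xFAD.

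Mertk was highest in the WT of the Batf3KO experiment at 794 ± 25.6 CPM (SD, n = 3), which did not overlap with Batf3KO, and lowest in 5xFAD/IRF8KO at 78.8 ± 40.1 CPM (SD, n = 3) and IRF8KO at 9 months at 74.4 ± 38.1 CPM (SD, n = 3). In between, every neighbouring pair overlapped. Gas6 likewise had 1 gap, between the WT of the Batf3KO experiment at 360.1 ± 51.7 CPM (SD, n = 3) and Batf3KO at 247 ± 14.2 CPM (SD, n = 3), and its other 8 groups ran without a gap down to 85.1 ± 24.03 CPM (SD, n = 3) in IRF8KO at 9 months. For Axl every neighbouring pair overlapped, from 103 ± 25.4 CPM (SD, n = 3) in Batf3KO to 1.62 ± 0.399 CPM (SD, n = 3) in flox. Tyro3 was low throughout, from 8.12 ± 2.43 CPM (SD, n = 3) in IRF8KO at 9 months to 0.0865 ± 0.1499 CPM (SD, n = 3) in 5xFAD, with 1 gap, between Cre and IRF8KO at 3 months.

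**Figure D2:**
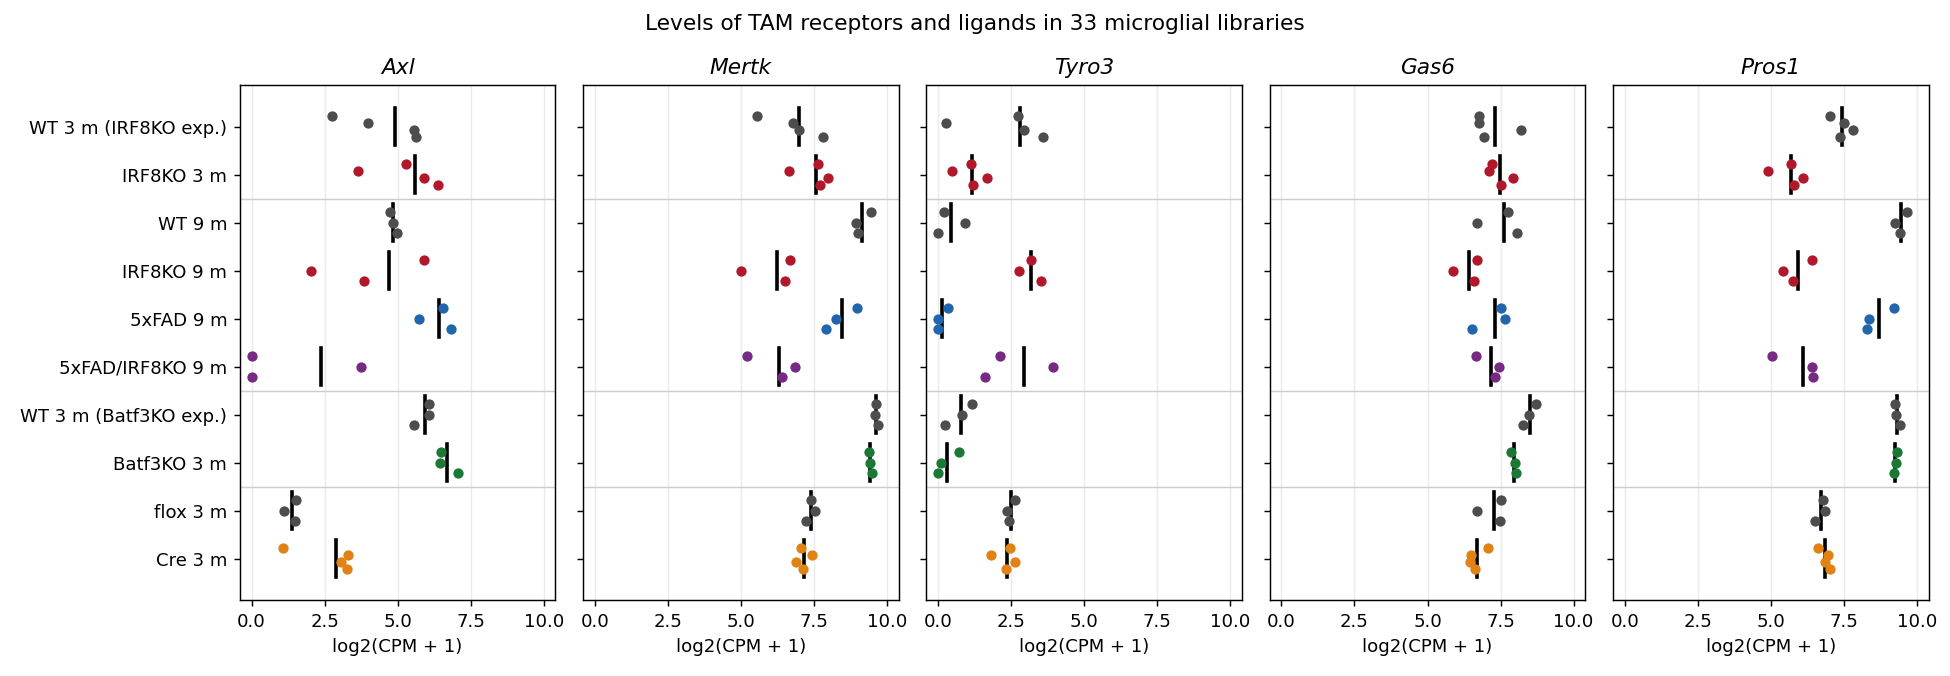
Level of each gene in each of the 33 libraries (horizontal axis, log2(CPM + 1)) by group (rows); points are libraries and the vertical black lines are group means, drawn as log2 of the mean CPM plus 1. Pros1 points of IRF8KO at 3 months lie between 28.8 and 67.5 CPM, all left of their WT at 128 to 225 CPM, and 2 of 3 Axl points of 5xFAD/IRF8KO lie at 0.

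The WT groups of 3 months differed between experiments, which limits any reading of levels across experiments. WT libraries of the IRF8KO experiment had 45.7, 109.9, 126 and 222 CPM of Mertk, and those of the Batf3KO experiment 790.4, 771 and 822 CPM. The log2 difference was -2.25 ± 0.455 (SE, adjusted p = 0.003595) for Mertk and -1.49 ± 0.275 (SE, adjusted p = 0.00236) for Pros1 by edgeR's quasi-likelihood test with Benjamini-Hochberg adjustment, which is the test behind every adjusted p in the report. Those were the 2 of 5 members called at an adjusted p under 0.05, where 42.8% of all genes tested were called. Between these groups 3 members did not overlap, against 56.0% of all genes. Comparisons below are therefore made within an experiment, or between the effects of 2 experiments.

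In IRF8KO microglia of 3 months the ligand Pros1 fell, and no other member passed the test. Pros1, which encodes protein S, also known as an anticoagulant of plasma, measured 128, 181, 225 and 163 CPM in the WT libraries, against 51.05, 28.8, 67.5 and 54.1 in the IRF8KO libraries. The highest knockout library lay well under the lowest WT library. The log2 fold change was -1.81 ± 0.327 (SE, adjusted p = 0.00793), a level of 0.285 times that of WT. It was the 1 of 5 members called, where 7.39% of all genes were called, and the 1 member whose groups did not overlap, against 19.3% of all genes. The call held in each of the 13 alternatives run for this comparison, with log2 fold changes from -1.95 to -1.65. The 10 microglia markers had a median log2 change of -1.59 in the same comparison, with 5 of 10 called lower. Pros1 thus lay near that median.

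The other ligand did not follow. Gas6 measured 108, 107, 292 and 122 CPM in the WT libraries, against 146, 136, 242 and 184 in the IRF8KO libraries, and the 2 groups overlapped. Its log2 fold change was 0.16 ± 0.364 (SE, adjusted p = 0.831), with a 95% interval of -0.55 to 0.88. Pros1 made up 42.9 ± 7.87% (SD, n = 4) of the summed ligand level per kilobase in WT and 14.96 ± 2.57% (SD, n = 4) in IRF8KO.

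Among the receptors, Mertk, the main efferocytic kinase of macrophages, measured 45.7, 109.9, 126 and 222 CPM in the WT libraries, against 196, 99.96, 249 and 206 in the IRF8KO libraries. The WT libraries spread widely and the groups overlapped, with a log2 fold change of 0.54 ± 0.439 (SE, adjusted p = 0.502) and an interval of -0.32 to 1.40. Axl, a receptor known to be induced on activated and interferon-exposed macrophages, measured 5.72, 15.01, 46.01 and 48.7 CPM and 38.1, 11.4, 59 and 81.7 CPM, and its interval of -0.60 to 1.98 spanned 0. Tyro3 had 5.72, 0.2001, 6.62 and 11.05 CPM in the WT libraries, against 1.18, 0.381, 2.15 and 1.31 in the IRF8KO libraries, with a log2 fold change of -2.24 ± 1.14 (SE, adjusted p = 0.261). The second WT library had the lowest Tyro3 of all 8, so the groups overlapped. Neuron markers had a median log2 change of -1.46 in the same comparison, with 3 of 9 called lower. Their part in the Tyro3 values was not tested.

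The other genes of the pathway were read from lists of phagocytic receptors, signalling, nuclear receptors, shedding, ligand maturation, phosphatidylserine exposure and the don't-eat-me pair of Sirpa and Cd47, 66 genes in all. At 3 months 60 were tested, of which 6 rose and 1 fell, where 7.39% of all genes were called. Their median log2 change was 0.48 against -0.02 over all genes. Cd300lf, a phosphatidylserine-binding receptor of myeloid cells, rose by 2.75 on the log2 scale (adjusted p = 0.0292). Rhbdf2, which encodes an iRhom needed by the protease ADAM17 that sheds MERTK, rose by 2.43 (adjusted p = 0.0259), and Ifnar1, the type I interferon receptor chain through which TAM receptors signal, rose by 2.16 (adjusted p = 0.00518). Trem2, a lipid-sensing receptor of microglia, was the 1 that fell, with a log2 fold change of -1.93 (adjusted p = 0.022). Markers of other myeloid cells moved in the same comparison: 4 of 11 neutrophil, 2 of 7 monocyte and 3 of 8 tested border macrophage markers were called higher, and their part in the pathway genes was not tested. None of the 5 ligand maturation genes, which act in gamma-carboxylation and propeptide cleavage, was called.

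At 9 months Pros1 and Mertk fell in IRF8KO against WT. Tyro3 was the other of the 3 members of 5 called, and rose, but it passed the filter on low counts only through the knockout groups where it is high, so its call is no support. The share of all genes called was 28.3%, so changes were common. Pros1 measured 809, 612 and 682 CPM in the WT libraries, against 84.7, 42.01 and 53.2 in the IRF8KO libraries. The lowest WT library was several times the highest knockout library. The log2 fold change was -3.49 ± 0.434 (SE, adjusted p = 0.0001133), a level of 0.0892 times WT. Mertk measured 696, 489.5 and 510.4 CPM in the WT libraries, against 102, 30.9 and 89.7 in the IRF8KO libraries, again without overlap, with a log2 fold change of -2.87 ± 0.508 (SE, adjusted p = 0.001402). Both calls held in each of the 12 alternatives run. In the same contrast 9 of the 10 microglia markers were called lower, with a median log2 change of -3.11, and the neutrophil share went from at most 0.0003304% to 6.34 to 8.91%.

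Gas6 had 213, 103 and 265 CPM in the WT libraries, against 102, 57.6 and 95.6 in the IRF8KO libraries. Each knockout library lay below each WT library, although the highest knockout value and the lowest WT value were nearly the same. The log2 fold change of -1.12 ± 0.407 (SE, adjusted p = 0.0567) missed the threshold. DESeq2 called it with an adjusted p of 0.03, and over all alternatives the adjusted p ran from 0.03 to 0.164. Axl had 25.7, 27.97 and 30.4 CPM in WT, a narrow range, and 58.5, 3.15 and 13.5 CPM in IRF8KO, values both above and below WT, with a log2 fold change of -0.10 ± 1.47 (SE, adjusted p = 0.972) and an interval of -2.98 to 2.78. In all 4 members other than Axl the groups did not overlap, as in 49.2% of all genes. Tyro3 is among the 4 and, having passed the filter only through the knockout groups, adds no support to that count. Summed per kilobase, the receptors stood at 136 ± 25.8 CPM in WT and 23.4 ± 14 CPM in IRF8KO (SD, n = 3 each), and the ligands at 248 ± 49.95 and 48.1 ± 14.1 CPM.

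Tyro3 went the other way from Mertk. It had 0.147, 0.902 and 0 CPM in WT, from 1, 2 and 0 counts, and 8.01, 5.75 and 10.6 CPM in IRF8KO, from 68, 42 and 91 counts. The ratio of the groups' summed counts, scaled for library size, was 27.2 with an exact 95% counting interval of 9.19 to 133, which covers counting error only. The fitted log2 fold change was 4.46 ± 1.45 (SE, adjusted p = 0.0368), a value that depends on the prior count and is no bound. The call was lost on leaving out any 1 of the 6 libraries, with adjusted p from 0.0534 to 0.182, and without the filter on low counts (adjusted p = 0.104). Neuron transcripts moved with it. The 9 neuron markers made up 0.000226 to 0.000661% of gene counts in WT and 0.0646 to 0.328% in IRF8KO, and all 9 were called higher. The oligodendrocyte list went from 0.0237 to 0.0273% to 0.721 to 1.11% and the astrocyte list from 0.0209 to 0.0223% to 0.235 to 0.295%. Their part in the Tyro3 difference was not tested.

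**Figure D3:**
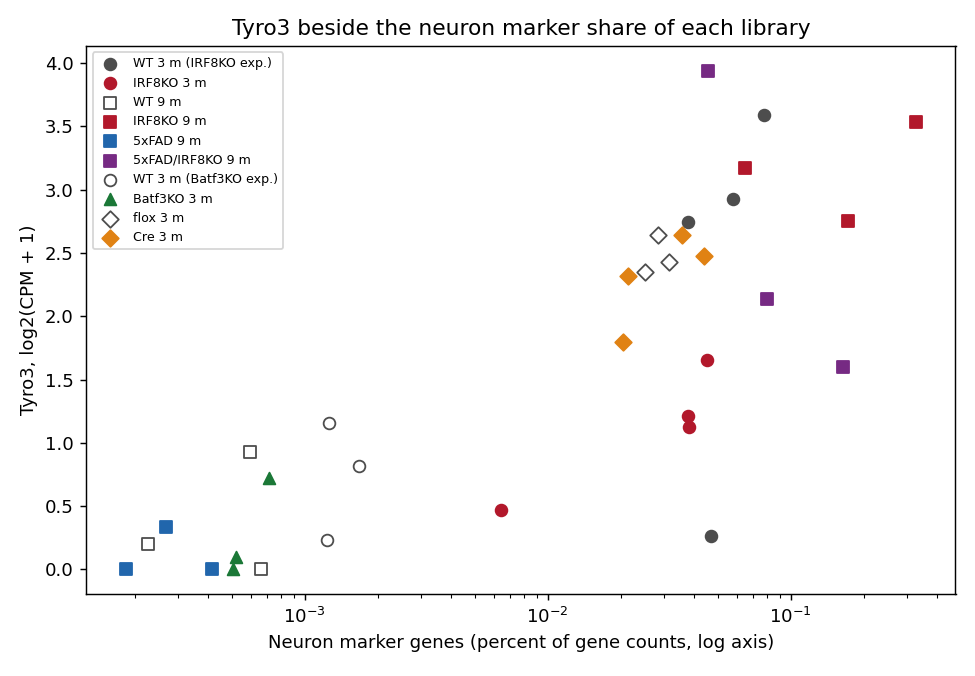
Tyro3 level (vertical axis, log2(CPM + 1)) against the summed share of 9 neuron markers in gene counts (horizontal axis, percent, log axis) in each of the 33 libraries; symbols give the group. The WT and 5xFAD libraries of 9 months lie at the lower left and the IRF8KO and 5xFAD/IRF8KO libraries of that age at the upper right, while 1 WT library of the IRF8KO experiment has a high neuron share with 0.2 CPM of Tyro3.

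Of the 60 pathway genes tested at 9 months, 7 rose and 18 fell, where 28.3% of all genes were called. Their median log2 change was -0.86 against 0.25 over all genes. Lgals3, which encodes galectin-3, a lectin that can also bind MERTK, rose by 7.31 on the log2 scale (adjusted p = 1.146e-05), from a mean of 2.33 to 361 CPM. Adgrb1, the phosphatidylserine receptor BAI1, and Tub, which encodes tubby, described as a further MERTK ligand, were also called higher. Adgrb1 averaged 0 CPM in WT and 6.89 CPM in IRF8KO, and Tub 0.0489 and 9.8 CPM, so no fold is given. Both are among the 7 that rose, but passed the filter on low counts only through the knockout groups where they are high. Their calls are therefore no support. Other cell type markers moved with these genes: 6 of 7 monocyte, 5 of 9 border macrophage and 6 of 6 red blood cell markers were called higher. The monocyte share went from 0 to 0.000478% to 0.631 to 1.54% of gene counts and the red blood cell share from 1.737e-05 to 0.00529% to 2.39 to 15.8%, and their part was not tested. Lrp1, an engulfment receptor, fell by 3.97 (adjusted p = 0.0004428), Src, a kinase downstream of MERTK, fell by 3.90 (adjusted p = 0.0499), and Rxrb, a nuclear receptor partner, fell by 2.40 (adjusted p = 0.0113). Both sheddases, Adam10 and Adam17, were called lower. They are named beyond the rule for named genes, after their values were seen.

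The IRF8KO effect differed between 9 and 3 months for 3 members, with a lower value at 9 months for Mertk and Pros1 and a higher one for Tyro3, by a test of the difference between the effects, which called 24.0% of all genes. On the log2 scale, and beside a median of 0.40 over all genes, the difference was -3.32 ± 0.686 (SE, adjusted p = 0.00214) for Mertk. It was -1.61 ± 0.457 (SE, adjusted p = 0.0168) for Pros1 and 6.78 ± 1.88 (SE, adjusted p = 0.0149) for Tyro3. The Tyro3 value rests on a sum of 3 counts in WT at 9 months, depends on the prior count and is no bound. For Mertk and Tyro3 the estimates at the 2 ages lay on opposite sides of 0, though neither gene was called at 3 months. In the same test 9 of 9 neuron markers were called higher, with a median of 11.1. Of 10 microglia markers 5 were called lower, with a median of -1.36. The part of these markers was not tested. The Mertk call held in all 19 alternatives. That of Pros1 was lost without WT replicate 1 (adjusted p = 0.0791), WT replicate 3 (0.0508) or IRF8KO replicate 3 (0.0534) of 9 months, and that of Tyro3 without WT replicate 1 (0.0712). Gas6 differed by -1.23 ± 0.556 (SE, adjusted p = 0.119) and Axl by -0.73 ± 1.16 (SE, adjusted p = 0.7001). The libraries of the 2 ages also differed in depth and marker content, so age and set of libraries cannot be told apart.

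**Figure D4:**
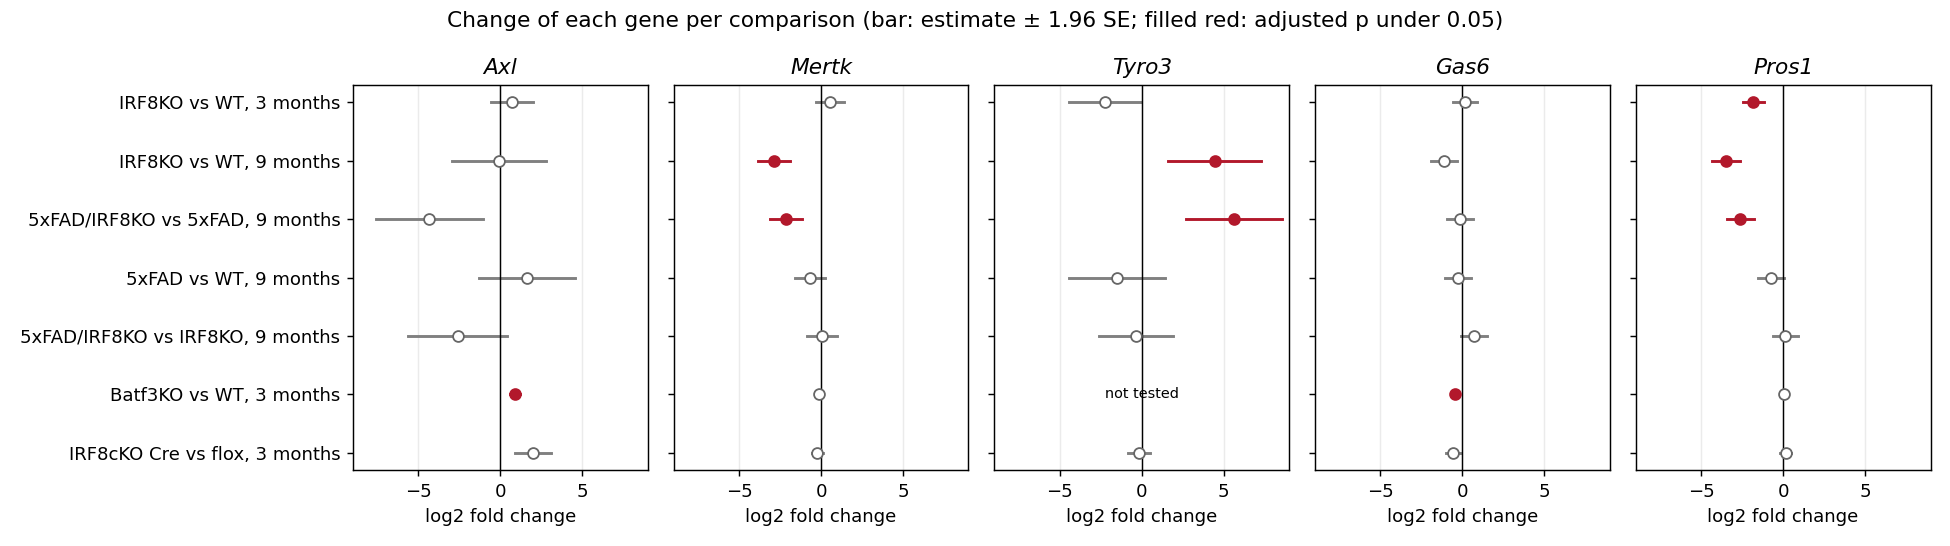
Log2 fold change of each gene (horizontal axis) in 7 comparisons (rows); points are edgeR estimates, lines are 95% intervals and filled red points have an adjusted p under 0.05. Pros1 is red and left of 0 in all 3 comparisons of germline IRF8KO with its control, Tyro3 was not tested between Batf3KO and WT, and its point for 5xFAD against WT rests on 3 counts in each group.

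In 5xFAD microglia of 9 months no member passed the test against WT in the model of all 12 libraries of that age, where 1.99% of all genes were called. None had an unadjusted p under 0.05, and DESeq2 called none. Sex-linked transcripts differed between these groups without overlap. The Y-linked share was 0.0275 to 0.0307% in WT against 0 to 0.0156% in 5xFAD. Xist took 0 to 0.000165% in WT against 0.000674 to 0.0104% in 5xFAD. Sex content and the transgenes were not separated, and the part of these transcripts was not tested. Axl measured 25.7, 27.97 and 30.4 CPM in the WT libraries, against 92.3, 52.5 and 111 in the 5xFAD libraries, and each 5xFAD library lay above each WT library. Its log2 fold change was 1.63 ± 1.504 (SE, adjusted p = 0.8904). Pros1 measured 594, 327 and 316 CPM in 5xFAD, all below WT, with a log2 fold change of -0.75 ± 0.396 (SE, adjusted p = 0.567). Mertk measured 501, 307 and 240 CPM in 5xFAD, of which 1 library reached into the WT range, with a log2 fold change of -0.68 ± 0.476 (SE, adjusted p = 0.775). These estimates go in opposite directions for Axl, which is part of the published disease-associated signature of microglia, and for the pair of Mertk and Pros1.

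These calls depended on which libraries entered the fit. Estimated from the 6 WT and 5xFAD libraries alone, in place of all 12, the test called 3 members: Axl at 1.58 (adjusted p = 0.0003267), Mertk at -0.78 (adjusted p = 0.00367) and Pros1 at -0.85 (adjusted p = 0.00178). That fit called 43.5% of all genes it tested, so a call in it is common. The 2 members without overlap between the groups stood beside 36.9% of all genes. Gas6 had 182, 199 and 91.7 CPM in 5xFAD, across the WT range. Tyro3 had 3, 0 and 0 counts in 5xFAD, at or under a floor of 3 counts per library, and no fold is given. Of the pathway genes, Dock2, which activates the GTPase Rac in engulfment and migration, was the 1 called, with a log2 fold change of -1.67 (adjusted p = 0.0384). That call is from the model of all 12 libraries, where 1.99% of all genes were called.

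Within 5xFAD, Pros1 and Mertk were lower in 5xFAD/IRF8KO. Tyro3 was the other of the 3 members of 5 called, but here too it passed the filter only through the knockout groups where it is high, which makes its call no support. The share of all genes called was 27.8%. Pros1 measured 31.99, 83.7 and 87.03 CPM in 5xFAD/IRF8KO, all below 5xFAD at 594, 327 and 316 CPM, and fell with a log2 fold change of -2.60 ± 0.418 (SE, adjusted p = 0.0007437). Mertk measured 36.03, 116 and 84.8 CPM against 501, 307 and 240 CPM and fell with a log2 fold change of -2.13 ± 0.493 (SE, adjusted p = 0.00737). Tyro3 measured 3.39, 14.3 and 2.03 CPM, from 42, 169 and 24 counts, against 3, 0 and 0 counts in 5xFAD. Its scaled count ratio was 42.5 with an exact 95% counting interval of 14.4 to 208, and its fitted log2 fold change, again no bound, 5.63 ± 1.48 (SE, adjusted p = 0.0144). The Tyro3 call was lost without 5xFAD replicate 2 (adjusted p = 0.0761) or replicate 3 (0.0672). Neuron markers again moved with it, from 0.000184 to 0.000415% to 0.0456 to 0.165% of gene counts, with 9 of 9 called higher, and their part was not tested. All 10 microglia markers were called lower, with a median of -3.39.

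Axl had the lowest estimate of the 5 members between the 2 amyloid groups but was not called. It had 92.3, 52.5 and 111 CPM in 5xFAD, from 1067, 305 and 238 counts, and 0, 12.6 and 0 CPM in 5xFAD/IRF8KO, from 0, 148 and 0 counts. A count of 0 allows up to 0.242 and 0.254 CPM in those 2 libraries at a limit of 3 counts. All 3 lay below all 5xFAD libraries, but replicate 2 stood far from the other 2. The log2 fold change was -4.34 ± 1.67 (SE, adjusted p = 0.0722). DESeq2 called it (adjusted p = 0.0135), as did the fit without a filter on low counts (0.0001771), the model of all 33 libraries (0.00598) and the fit without 5xFAD/IRF8KO replicate 2 (0.0008413). In that last fit both remaining libraries were at 0, and the fitted log2 value of -12.25 depends on the prior count and is no bound. It called 25.9% of all genes. The shares of all genes called by DESeq2, without the filter and in the model of all 33 libraries are not given here, so those Axl calls are no support. Gas6, at 99.2, 173 and 158 CPM, overlapped with 5xFAD, with a log2 fold change of -0.13 ± 0.4002 (SE, adjusted p = 0.846) and an interval of -0.92 to 0.65. In 4 of 5 members the groups did not overlap, against 48.3% of all genes. Tyro3 is among the 4 and passed the filter only through the knockout groups where it is high, so it adds no support to that count. Of the summed ligand level per kilobase, Pros1 made up 61.95 ± 9.85% in 5xFAD and 21.8 ± 4.54% in 5xFAD/IRF8KO (SD, n = 3 each).

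Of 60 pathway genes 7 rose and 8 fell, where 27.8% of all genes were called. Their median log2 change was 0.09 against 0.24 over all genes. Lgals3 rose by 5.79 (adjusted p = 2.337e-05) and Ptk2, the focal adhesion kinase downstream of MERTK and integrins, by 3.75 (adjusted p = 0.00615). Adgrb1 was called higher, at a mean of 6.16 CPM against 0 CPM in 5xFAD. It passed the filter on low counts only through the knockout groups where it is high, so its call is no support. Monocyte markers, 6 of 7 called higher, and red blood cell markers, 6 of 6, moved in the same comparison. Of 9 border macrophage markers 5 were called higher and 1 lower. The part of these markers was not tested. Trem2 fell by 2.63 (adjusted p = 0.0005776). Havcr2, which encodes the checkpoint receptor TIM-3, fell by 2.07 (adjusted p = 0.00194). Vkorc1, whose product recycles vitamin K for gamma-carboxylation, fell by 2.07 (adjusted p = 0.0163).

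5xFAD/IRF8KO was then compared with IRF8KO, the amyloid transgenes on a background without Irf8. No member was called by edgeR, where 0.164% of all genes were, none had an unadjusted p under 0.05, and DESeq2 called none. No member's groups were free of overlap, against 11.1% of all genes. Axl had 58.5, 3.15 and 13.5 CPM in IRF8KO, and its log2 fold change was -2.60 ± 1.55 (SE, adjusted p = 0.546), an estimate opposite in sign to that of 5xFAD against WT. Without 5xFAD/IRF8KO replicate 2 it was called (adjusted p = 0.0365), with a fitted log2 value of -10.5 against libraries at 0. The interaction, which tests that difference itself, was -4.24 ± 2.16 (SE, adjusted p = 0.408) for Axl. It called none of the members and 0.438% of all genes, again with none at an unadjusted p under 0.05 and none by DESeq2. Without 5xFAD/IRF8KO replicate 2, with both other libraries at 0, the Axl interaction was called (adjusted p = 0.0402) at a fitted -12.14. The fitted -10.5 and -12.14 depend on the prior count and are no bound. Both calls appeared only without replicate 2, the 1 library of its group with Axl counts, and are no support. The approximate interval of the Axl interaction over all libraries was -8.46 to -0.01. For Gas6 the difference of 5xFAD/IRF8KO from IRF8KO was 0.72 ± 0.402 (SE, adjusted p = 0.506), and the intervals were -0.87 to 0.99 for Mertk and -0.63 to 0.92 for Pros1.

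Without Batf3, Axl rose and Gas6 fell at 3 months, while Pros1 and Mertk were not called. Of the 5 members 4 passed the filter on low counts and 2 were called, where 3.83% of all genes were called. Axl measured 66.3, 66.3 and 46.7 CPM in the WT libraries, against 88.9, 86.9 and 132 in the Batf3KO libraries. All Batf3KO libraries lay above all WT libraries. The log2 fold change was 0.87 ± 0.153 (SE, adjusted p = 0.00625), a level of 1.83 times WT. Gas6, a ligand of Axl, measured 414, 356 and 311 CPM in the WT libraries, against 232, 251 and 259 in the Batf3KO libraries, again without overlap, with a log2 fold change of -0.44 ± 0.0879 (SE, adjusted p = 0.0135). The Axl call held on leaving out any 1 library. That of Gas6 was lost without WT replicate 1 (adjusted p = 0.0508) or 2 (0.0668) or Batf3KO replicate 1 (0.0914) or 2 (0.0513). Both calls were lost in a model of all 33 libraries, which takes its spread from the other experiments too.

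Mertk measured 790.4, 771 and 822 CPM in the WT libraries, against 665, 689 and 711 in the Batf3KO libraries. The groups did not overlap, as for 3 of the 4 members tested and 23.7% of all genes, but the log2 fold change of -0.11 ± 0.07196 (SE, adjusted p = 0.445) was small and not called. Pros1 measured 609, 619 and 688 CPM and 632, 622 and 591 CPM, with a log2 fold change of 0.04 ± 0.0866 (SE, adjusted p = 0.864) and a narrow interval of -0.13 to 0.21. Tyro3, at 1.23, 0.766 and 0.172 CPM in the WT libraries against 0.647, 0.0689 and 0 in Batf3KO, was too low to test. The microglia share was alike in both groups, at 4.55 to 4.81% and 4.404 to 4.71%. Other cell type shares were lower in Batf3KO without overlap: the neuron share was 0.00124 to 0.00167% in WT against 0.000507 to 0.000714%, with 1 of 5 tested markers called lower, and the oligodendrocyte share 0.0501 to 0.0522% against 0.0364 to 0.0431%, with 2 of 6. The endothelial and mural share was also lower without overlap, at 0.005155 to 0.00623% in WT against 0.00407 to 0.00483%, with 1 of 5. So was the dendritic cell share, whose list holds Batf3, at 0.00334 to 0.00482% against 0.00126 to 0.001765%. The part of these cell types in the fall of Gas6 was not tested. Of 55 pathway genes tested none rose and 3 fell, where 3.83% of all genes were called. Lrp1 fell by 0.42 (adjusted p = 0.0137) and Sirpa, the receptor of the don't-eat-me signal CD47, by 0.39 (adjusted p = 0.00215). Mylip, a ligase that degrades lipoprotein receptors, fell by 0.36 (adjusted p = 0.0416).

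The Irf8 and Batf3 effects on Pros1 at 3 months differed when tested against each other, by -1.74 ± 0.373 (SE, adjusted p = 0.0198) on the log2 scale. It was the 1 of 5 members called, against 3.22% of all genes, beside a median of 0.16 over all genes. The call was lost on leaving out any 1 of the 6 libraries of the Batf3KO experiment, with adjusted p from 0.0614 to 0.0856 and log2 differences from -1.79 to -1.69. In the same test 4 of 10 microglia markers were called lower, with a median of -1.23. Of 8 tested border macrophage markers 3 were called higher, and the part of these markers was not tested. The Axl effects differed by -0.10 ± 0.856 (SE, adjusted p = 1) with an interval of -1.77 to 1.58, and the Gas6 effects by 0.71 ± 0.456 (SE, adjusted p = 0.467).

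After conditional deletion no member was called among the 7 libraries, and neither was any other gene (0.0% of genes tested). Axl and Gas6 had an unadjusted p under 0.05, and DESeq2 called Axl (adjusted p = 0.0333) with 1.06% of all genes. Axl measured 1.89, 1.16 and 1.795 CPM in flox and 1.11, 8.79, 7.28 and 8.55 CPM in Cre. Cre replicate 1, with its flox-like Irf8, lay below all 3 flox libraries, and Cre replicates 2 to 4 above all of them. The log2 fold change was 1.99 ± 0.574 (SE, adjusted p = 0.266). Gas6 measured 180, 103 and 176 CPM in flox and 133, 87.8, 86.8 and 98.1 CPM in Cre. Again the library labelled Cre replicate 1 lay inside the flox range, and Cre replicates 2 to 4 below it, with a log2 fold change of -0.59 ± 0.222 (SE, adjusted p = 0.413) over all 7. With all 4 Cre libraries no member's groups were free of overlap, against 7.33% of all genes.

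Without the library labelled Cre replicate 1, both were called, with 6.24% of all genes. Axl then rose by 2.34 on the log2 scale (adjusted p = 0.000167), and Gas6 had a log2 fold change of -0.75 (adjusted p = 0.0218). Batf3 differed between the same libraries, at 32.2 to 62.1 CPM in Cre replicates 2 to 4 against 1.8 to 4.21 CPM in flox and 1.22 CPM in Cre replicate 1. The border macrophage share was 0.0122 to 0.017% in flox and 0.00073 to 0.0214% in Cre, with a Cre median of 0.00114%. Over all Cre libraries its 6 tested markers had a median log2 change of -2, with 0 called. The part of Batf3 and of these markers was not tested. Pros1, at 108, 115 and 90.3 CPM in flox and 96.4, 124, 114 and 129 CPM in Cre, had a log2 fold change of 0.15 ± 0.1695 (SE, adjusted p = 0.914) and an interval of -0.18 to 0.48. The interval does not reach the fall of Pros1 seen in germline IRF8KO of that age. Mertk, at 167, 183 and 148 CPM and 133, 174, 117 and 138 CPM, had -0.24 ± 0.175 (SE, adjusted p = 0.803), and Tyro3, at 5.23, 4.104 and 4.38 CPM and 4.56, 2.47, 5.25 and 3.99 CPM, had -0.17 ± 0.336 (SE, adjusted p = 0.962). On leaving out any 1 of the 7 libraries, Cre replicate 1 among them, none of these 3 members was called. Their log2 fold changes then ran from 0.05 to 0.23 for Pros1, from -0.35 to -0.16 for Mertk and from -0.32 to 0.01 for Tyro3. None of the 60 pathway genes tested was called over all 7 libraries, a fit that called 0.0% of all genes.

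**Figure D5:**
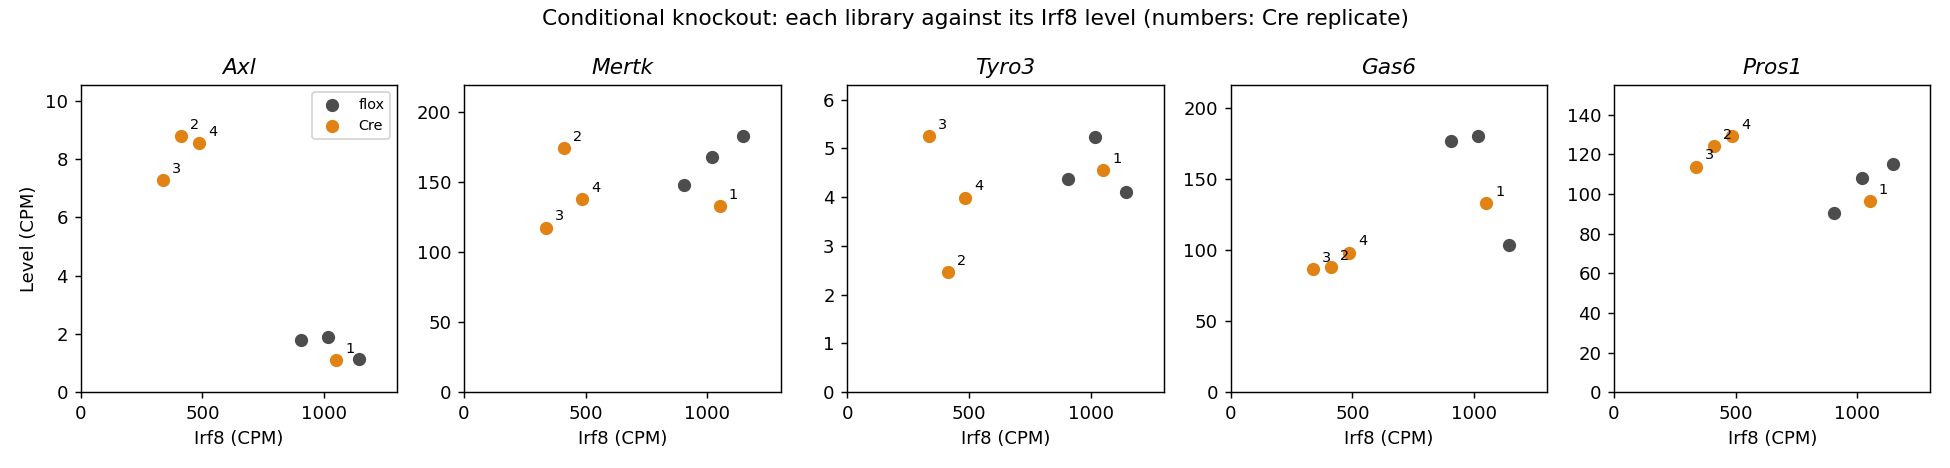
Level of each gene (vertical axes, CPM from 0) against the Irf8 level (horizontal axes, CPM from 0) in the 3 flox and 4 Cre libraries; numbers are Cre replicates. Cre replicate 1 lies among the flox points in Irf8 and beside them in Axl, and Cre replicates 2 to 4 stand at 337 to 485 CPM of Irf8 with 7.28 to 8.79 CPM of Axl.

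The effects of conditional and germline loss were set against each other for all members. Pros1 differed by 2.06 ± 0.375 (SE, adjusted p = 0.00382) on the log2 scale, the 1 of 5 called, where 7.04% of all genes were called, beside a median of 0.27 over all genes. The call held in each of the 20 alternatives, with adjusted p from 7.178e-07 to 0.0348, the fit without the library labelled Cre replicate 1 among them. The germline effect was a fall in all 4 knockout libraries, whereas the Cre libraries lay at 96.4, 124, 114 and 129 CPM, 2 inside the flox range and 2 above it. The differences of the effects were 1.41 ± 0.996 (SE, adjusted p = 0.432) for Axl, -0.69 ± 0.515 (SE, adjusted p = 0.461) for Mertk, -0.65 ± 0.476 (SE, adjusted p = 0.457) for Gas6 and 2.14 ± 1.22 (SE, adjusted p = 0.312) for Tyro3. The microglia share went from 0.8999 to 2.14% to 0.503 to 0.8202% in the germline comparison and was 3.15 to 3.32% and 2.66 to 3.296% in flox and Cre, and its part was not tested.

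The members also varied together across groups to different degrees. Over the 10 group means of log2(CPM + 1), which share libraries and scaling between genes, Pearson's r was 0.9 between Mertk and Pros1 and 0.83 between Mertk and Gas6. It was 0.54 between Axl and its ligand Gas6, and negative for Tyro3 with each of the other members, from -0.89 with Mertk to -0.70 with Gas6. Among 13946 genes the patterns most like Mertk were those of Tfe3, a lysosomal transcription factor (r = 0.992), Tgfb1, the cytokine TGF-beta 1 (0.989), and Smug1, a DNA repair glycosylase (0.988). Those most like Pros1 were Gpr155 (0.976), Gm33858 (0.975) and Gm42944 (0.973). For Gas6 they were Edc4, Slc12a4 and Wbp1l (0.95 each), and for Axl Fbxw5 (0.923), Foxred1 (0.916) and Trap1 (0.914). The patterns most like Tyro3 were those of Shtn1 (0.995), Galnt13 (0.993) and Thy1 (0.993), of which Thy1 and Shtn1 are known from neurons. These are descriptions over 10 points, taken as the closest of many genes. Over the 33 single libraries the values were smaller in size: among the named genes they ran from 0.65 for Galnt13 with Tyro3 to 0.92 for Gpr155 with Pros1, and among the members from 0.86 for Mertk and Pros1 to -0.65 for Mertk and Tyro3, with 0.49 for Axl and Gas6.

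The members lie at separate places in the genome. In GENCODE M21 on GRCm38, Axl (ENSMUSG00000002602.16) is at chr7:25757273-25788705 on the minus strand, Gas6 (ENSMUSG00000031451.6) at chr8:13465374-13494490 on the minus strand, and Pros1 (ENSMUSG00000022912.8) at chr16:62854307-62929346 on the plus strand. Mertk (ENSMUSG00000014361.5) and Tyro3 (ENSMUSG00000027298.17) are both on the plus strand of chromosome 2, at chr2:128698956-128802894 and chr2:119797733-119818104. Values are counts over the whole annotated gene. Gas6 shares 34 exon bases with Tmem255b on the other strand, and the unstranded counts cannot assign reads there. Mertk spans the antisense Gm14011 and the small nucleolar RNA Gm23172 without shared exon bases.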

How the data were processed

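RNA from sorted mouse microglia was converted to cDNA with SMART-Seq v4 and 15 amplification cycles and read as 2x55 paired ends, per the labels' protocols. The submitters' processing notes name bcl2fastq, STAR 2.5.2b, Picard 2.17.11, Subread, featureCounts and the build mm10, without role or order. The authors deposited raw read counts per gene; the column that ignores strand was used. There are no molecular identifiers, so intervals on counts cover counting error only. Gene IDs were matched to GENCODE M21 (54079 of 54146 without version). Between 47.3 and 78.6% of reads fell in genes, and the other rows were left out of library sizes.

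Tests used edgeR 4.0.16 (R 4.3.3): filterByExpr, TMM factors, quasi-likelihood F test, Benjamini-Hochberg over all genes, called at an adjusted p under 0.05. The 12 libraries of 9 months shared a model and other comparisons used their own groups. SEs come from the F statistic, and 95% intervals are 1.96 SE. Levels are CPM with TMM factors over all 33 libraries, per kilobase of union exon where genes are compared. The scripts were tested on simulated data. Alternatives were other size factors, DESeq2 1.42.0, no low-count filter, all 33 libraries, only the groups compared, a replicate block and leaving out each library. Promoter sequences are from RefSeq (GRCm38.p6), with all 5 members matched.

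The members and lists were chosen with earlier results of these data known. Named genes are the members, Irf8, Batf3, the 3 nearest patterns per member, and per comparison up to 3 called pathway genes in each direction that average 5 CPM or more where they are higher.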

Additional observations from a re-analysis of the deposited data

Results flagged for a closer look

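Gas6 in the WT libraries of the IRF8KO experiment had 1 library far from the others: replicate 3 at 291.8 CPM, against 107, 108 and 122 CPM. It was the 1 of 15 sets of 4 libraries (5 members in 3 groups) past Dixon's limit of 0.829, and chance passes that limit in about 1 of 20. That library also had the highest oligodendrocyte marker share of its group, 6.32%, and the lowest neutrophil share, 0.84%. Without it the log2 fold change of Gas6 between IRF8KO and WT was 0.6, still not called.

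The IRF8KO effect differed between 9 and 3 months for Mertk by -3.32 and for Pros1 by -1.61 on the log2 scale. That of Tyro3 differed by a fitted 6.78, which rests on a sum of 3 counts in WT at 9 months and is no bound. All 3 were called by edgeR after adjustment over all genes. Mertk was lower than WT in 3 of 3 knockout libraries at 9 months and within or above the WT range at 3 months. WT itself averaged 126 CPM of Mertk at 3 months and 565 CPM at 9 months. The microglia marker share of these WT groups was 0.8999 to 2.14% and 5.104 to 5.76%. Their red blood cell share was 3.07 to 10.3% and 1.737e-05 to 0.00529%, and the part of these differences was not tested.

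The effect on Pros1 differed between conditional and germline loss by 2.06, and between germline Irf8 and Batf3 loss by -1.74, on the log2 scale. All 4 germline knockout libraries of 3 months lay below their WT, whereas Cre and Batf3KO libraries overlapped with their controls. Microglia markers had a median log2 difference of 2.11 between conditional and germline loss and of -1.23 between germline Irf8 and Batf3 loss. Their part was not tested.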

How the results depend on the processing

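Counts of members called are out of 5, and changes are on the log2 scale. The 1 call of IRF8KO against WT at 3 months (Pros1) and that of the conditional against the germline effect (Pros1) were kept in every alternative run. Against WT at 9 months the IRF8KO count was 2 to 4 over the alternatives (main 3), and that of 5xFAD/IRF8KO against 5xFAD likewise 2 to 4 (main 3). The count of 5xFAD against WT went from 0 to 3 with only the groups compared, which has fewer libraries in the fit. The share of all genes called went from 1.99 to 43.5% there. That of Batf3KO went from 2 to 1 with the replicate block and to 0 with all 33 libraries in one model. That of Cre against flox went from 0 to 1 with DESeq2, which called 1.06% of all genes, and to 1 without the low-count filter. That of the WT groups of 3 months against each other went from 2, where 42.8% of all genes were called, to 4 with all 33 libraries. On leaving out 1 library, counts ran from 0 to 1 for 5xFAD/IRF8KO against IRF8KO and for the interaction (1 without 5xFAD/IRF8KO replicate 2 in both), from 1 to 2 for Batf3KO, from 0 to 2 for Cre against flox (2 without Cre replicate 1), from 1 to 4 for the IRF8KO effect at 9 against 3 months (1 without WT replicate 1) and from 0 to 1 for the IRF8KO against the Batf3KO effect. Except by construction, the cause was not tested. Where the share of all genes called in a fit is not given, a changed count says nothing about the members in particular.

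Signs changed only for members that were not called. With all 33 libraries Axl was at 0.08 for IRF8KO at 9 months and Pros1 at -0.02 for Batf3KO. Mertk of 5xFAD/IRF8KO against IRF8KO was at -0.03 with both DESeq2 and its size factors. On leaving out 1 library, Axl at 9 months ran from -1.8 to 0.3, and Gas6 of 5xFAD/IRF8KO against 5xFAD from -0.48 to 0.07. The fitted values of Tyro3 for 5xFAD against WT ran from -4.43 to 0.04, but with 3 counts in each group they give no fold. Against IRF8KO, 5xFAD/IRF8KO ran from -0.33 to 0.42 for Mertk, from -1.62 to 0.11 for Tyro3 and from -0.08 to 0.49 for Pros1. The Tyro3 interaction ran from -0.36 to 4.11, Pros1 of Batf3KO from -0.02 to 0.13, Tyro3 of Cre against flox from -0.32 to 0.01, and the IRF8KO against the Batf3KO effect from -0.5 to 0.28 for Axl and from -1.26 to 1.74 for Tyro3.

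Same-numbered libraries had correlations of their deviations from -0.2 to 0.192, and libraries with different numbers from -0.255 to 0.211. Deviations from the means of 3 or 4 libraries are tied to each other, so this check cannot exclude a pairing. With the replicate block 3 calls were lost: Tyro3 of IRF8KO at 9 months (adjusted p = 0.0534), Gas6 of Batf3KO (0.0731) and Tyro3 of the 9 against 3 month effect (0.0572). It put Tyro3 of the IRF8KO against the Batf3KO effect at 0.51. No paired analysis was possible between the WT groups because they come from separate experiments, and a block of the numbers within each experiment leaves no residual degrees of freedom. With other size factors the share of higher among all called genes went from 91 to 81% for 5xFAD, from 43.8 to 62.5% for the interaction and from 63.7 to 49.3% for the IRF8KO against the Batf3KO effect, whose median over all genes went from 0.16 to -0.01.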
